A study of Mus musculus with 10 samples.

Results

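Matrix proteases and their inhibitors were followed in the left ventricle of infarcted mouse hearts, as the rows of the RNA table whose symbol begins with Mmp and a digit, with Adamts, or with Timp and a digit. The rule found 51 genes among 49585 rows, namely 23 matrix metalloproteinases (MMP), 24 genes of the ADAMTS family, 5 of them ADAMTS-like, and 4 tissue inhibitors of metalloproteinases (TIMP). No antisense or pseudogene row carried such a symbol. Mmp1a, which the GENCODE M21 annotation lists as a polymorphic pseudogene, was kept and had no read in any library. The 4FM3 group held 5 libraries from male ICR mice, an outbred stock, with a myocardial infarction and a treatment labelled 4FM3. The PBS group held 5 libraries from male ICR mice with a myocardial infarction and phosphate-buffered saline. All hearts were taken 4 weeks after infarction, and the time label reads 8 weeks with no stated start. What 4FM3 contains is not given in the labels, the series title names direct reprogramming by adeno-associated virus (AAV), and neither uninjured hearts nor an empty vector were analysed here. Each library is labelled as left ventricle, with atria, valves and right ventricle removed.

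MMPs are zinc-dependent enzymes that are made as inactive precursors, are activated by removal of a propeptide, and together cut nearly all proteins of the extracellular matrix. ADAMTS proteases are secreted enzymes with thrombospondin repeats that trim procollagen, proteoglycans and microfibril proteins, whereas ADAMTS-like proteins keep the repeats and lack the catalytic domain. TIMPs bind the active site of these enzymes and block it. After an infarct the balance of these proteins is known to shape collagen turnover, scar formation and dilation of the ventricle.

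Total counts ran from 6634159 to 7319968 in the 4FM3 libraries and from 7099249 to 7711177 in the PBS libraries. Levels are CPM, the count over the library total in units of 1000000 reads after edgeR's TMM scaling, and a count of 0 allows up to 3 counts, or 0.371 to 0.481 CPM, which covers counting error only. All 7 cardiomyocyte markers passed the count filter, and their summed level was 95174 to 115752 CPM in 4FM3 and 64534 to 86925 CPM in PBS, so every library held the muscle RNA that its label names. Replicates 2 and 3 of the PBS group stood apart, with 976 and 949 CPM summed over 7 lung epithelium markers, against 0 to 20.5 CPM in the 4FM3 libraries and 0.515 to 1.14 CPM in the other PBS libraries. Replicates 2 and 5 of the 4FM3 group held more fibroblast marker RNA than the rest of that group, at 6190 and 7193 CPM, with 4138 to 4667 CPM in the other 3 libraries. Results were therefore also computed without PBS replicates 2 and 3, and without these and 4FM3 replicates 2 and 5. Separate animals are not stated for the libraries, so p-values measure the spread between libraries.

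Most matrix protease and inhibitor genes that passed the test were lower in 4FM3 ventricles, and 3 were higher. The gelatinase gene Mmp2, the procollagen-trimming protease gene Adamts2 and the inhibitor genes Timp2 and Timp3 fell by 1.77-fold to 2.33-fold, and the membrane-bound protease gene Mmp15 rose 1.82-fold. Of the 51 genes, 39 passed the filter on low counts. Of these 39, 18 passed the edgeR quasi-likelihood test at an adjusted p of 0.05 (46.2%), a share near the 43.0% of all 12906 genes tested. By direction, 15 were lower (38.5%), against 22.1% of all genes tested, and 3 were higher (7.69%), against 20.9%. The median log2 fold change of the 39 genes was -0.36, against -0.03 for all genes tested. The values of the groups lay wholly apart for 12 of the 39 (30.8%), against 27.5% of all genes tested, with 11 lower (28.2%, against 13.4%) and 1 higher, against 14.1%.

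**Figure D1:**
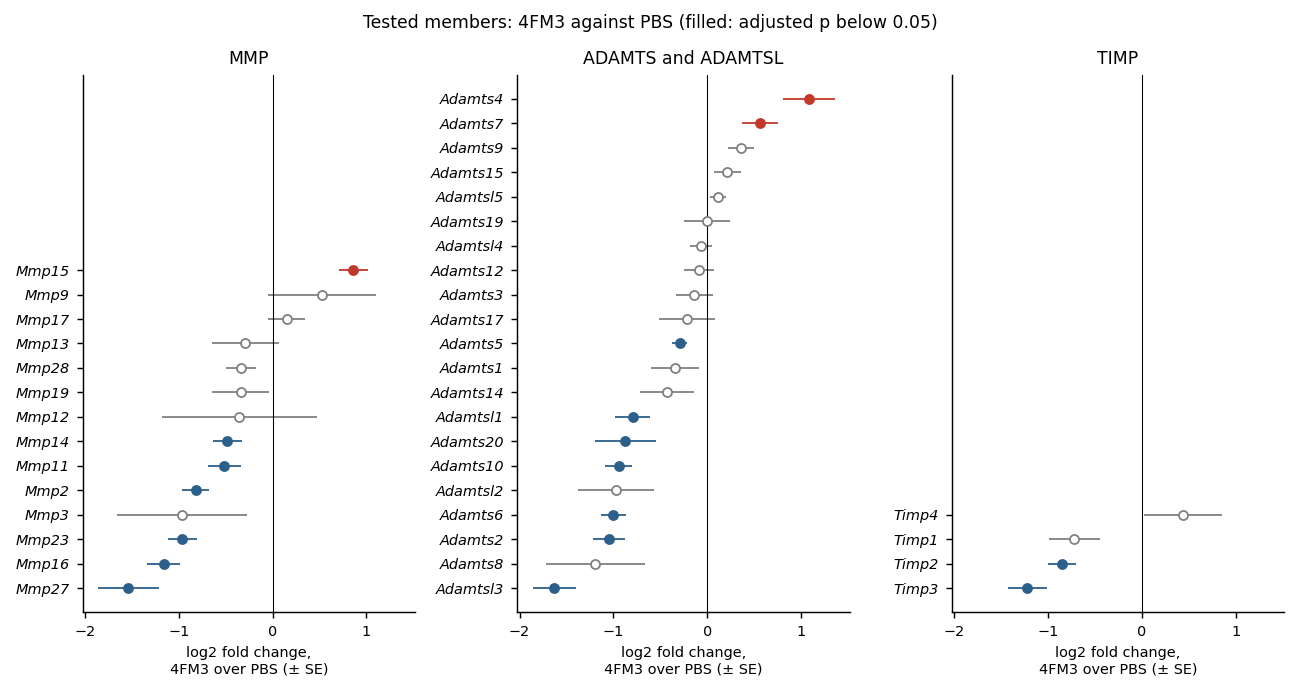
Log2 fold change of 4FM3 over PBS (x axis) for each of the 39 tested genes (y axis), by family, with the standard error as a bar; filled points passed an edgeR adjusted p of 0.05 and open points did not. In the MMP panel only Mmp15 is a filled point to the right of 0, and Adamts4 and Adamts7 are the filled points to the right of 0 among the ADAMTS genes.

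By family, 6 of 14 tested MMP genes were lower and 1 higher, and 7 of 21 tested ADAMTS genes were lower and 2 higher. Of 4 TIMP genes 2 were lower and none higher. Among all genes tested 22.1% were lower and 20.9% higher. In either direction 7 of 14 MMP, 9 of 21 ADAMTS and 2 of 4 TIMP genes passed, where 43.0% of all genes tested passed. The share of calls per family was thus near that of all genes, and in each family more genes were lower than higher. With so few genes per family, a difference in direction from all genes was not tested and none is read from these counts. The median log2 fold change was -0.42 for the MMP genes, -0.30 for the ADAMTS genes and -0.79 for the TIMP genes. Without PBS replicates 2 and 3, 4 MMP genes, 5 ADAMTS genes and 2 TIMP genes were lower, and 1 MMP and 1 ADAMTS gene were higher. Without these and 4FM3 replicates 2 and 5 the lower genes numbered 5, 8 and 3 for MMP, ADAMTS and TIMP, and the higher ones 1, 2 and 0. Both settings were chosen after seeing the data. Without 4FM3 replicate 3 or 4, or without PBS replicate 1 or 5, 1 ADAMTS gene was higher. With library size alone as scaling, which moved the median of all genes to -0.20, the family medians were -0.60, -0.47 and -0.96 for MMP, ADAMTS and TIMP.

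Several cell type marker lists moved with these genes. All 8 fibroblast markers were tested and 7 fell, with a summed level of 4138 to 7193 CPM in 4FM3 and 8851 to 9878 CPM in PBS, and none of them was at 0. All 5 activated fibroblast markers fell, with sums of 357 to 914 CPM in 4FM3 and 1394 to 1915 CPM in PBS. Of 9 macrophage markers 7 fell, with sums of 727 to 872 CPM in 4FM3 and 806 to 1724 CPM in PBS, and all 7 cardiomyocyte markers rose. The macrophage sum was 1724, 1388 and 1576 CPM in PBS replicates 2, 3 and 5. It was 1009 and 806 CPM in PBS replicates 1 and 4, the last within the 4FM3 range. PBS replicates 2 and 3 are those with lung epithelium transcripts, and the marker count is that of all libraries. Of 6 cartilage and valve markers 5 were tested and fell, with sums of 67.5 to 309 CPM in 4FM3 and 537 to 870 CPM in PBS. The part of these lists in the changes of the proteases was not tested, and in bulk tissue fewer cells of a type cannot be told apart from less RNA per cell. Neutrophil markers summed to 6.08 to 12 CPM in 4FM3 and 3.80 to 30.3 CPM in PBS, with 3 of 7 tested, none past the test and Elane at 0 in all libraries. Endothelial markers rose in 2 of 6 cases, smooth muscle and pericyte markers rose in 3 and fell in 3 of 6, and of 4 adipocyte, 7 lung and 3 mast cell markers 1, 0 and 0 passed the count filter.

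To compare levels between genes, CPM was divided by the exon length in kb from the GENCODE M21 annotation, the annotation used for counting not being given in the sources used here. Timp2 was the most abundant of the 51 genes on this scale, with 69.2 CPM per kb in 4FM3 and 125 in PBS. Mmp2 came next in both groups, with 54.5 CPM per kb in 4FM3 and 96.4 in PBS, and Adamtsl5, a secreted protein gene of the ADAMTS-like group, followed with 32.2 in 4FM3 and 29.7 in PBS. Mmp15 stood at rank 4 in 4FM3, with 25.2 CPM per kb, and at rank 11 in PBS, with 13.9. Levels above 10 CPM per kb were found for 8 genes in 4FM3 and 13 genes in PBS. At the low end of the tested genes were Adamts19, Mmp27, Adamts17 and Mmp16 in 4FM3, at 0.207 to 0.401 CPM per kb.

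**Figure D2:**
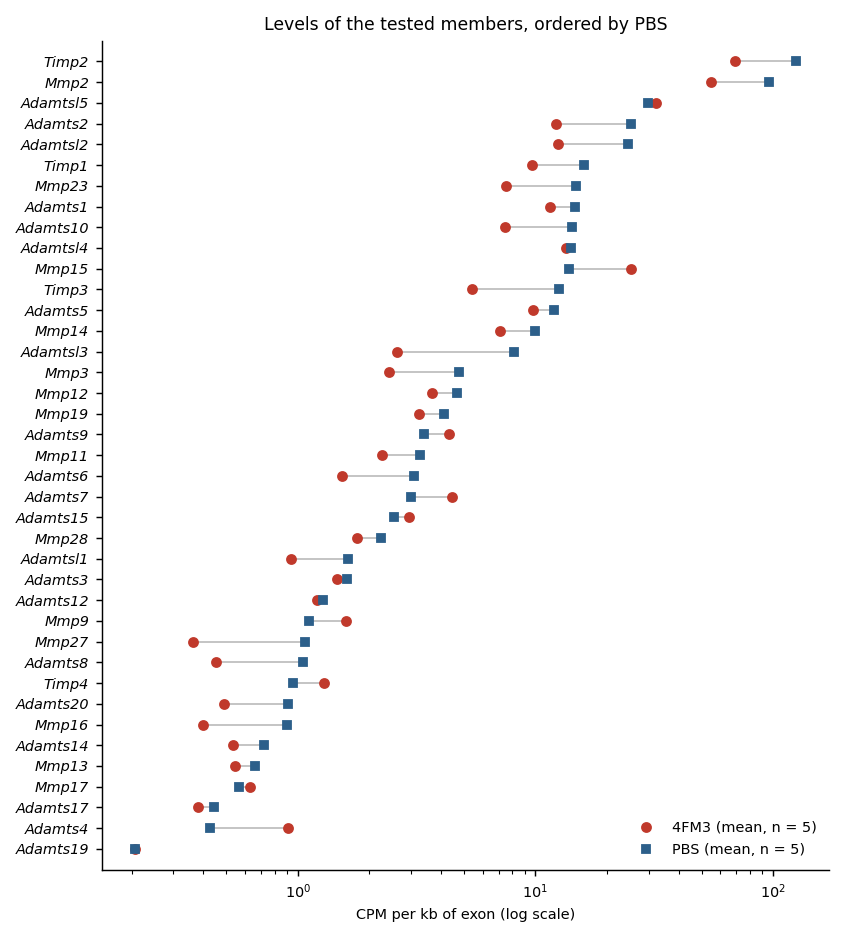
Mean CPM per kb of exon (x axis, log scale) of the 39 tested genes (y axis, ordered by the PBS mean) in 4FM3 (circles) and PBS (squares), n = 5 each. Timp2 and Mmp2 are at the top in both groups, and the circle of Mmp15 lies to the right of its square.

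Among the secreted gelatinases, which cut denatured collagen and basement membrane, Mmp2 was the more abundant and fell. Mmp2 (chromosome 8, 92827291 to 92853420) had 145, 221, 146, 166 and 242 CPM in 4FM3 replicates 1 to 5, against 319.9, 376, 322, 294 and 312 CPM in PBS replicates 1 to 5. The highest 4FM3 values, those of replicates 5 and 2, stayed under the lowest PBS value, so the groups did not overlap. Mmp2 was 1.77-fold lower in 4FM3 (log2 fold change -0.82, SE 0.144, edgeR adjusted p = 0.00106), and at -0.74 on the log2 scale without PBS replicates 2 and 3. Mmp9, the second gelatinase gene and a product of inflammatory cells, averaged 5.65 ± 4.67 CPM in 4FM3 and 3.94 ± 2.24 CPM in PBS (SD, n = 5 each) (log2 fold change 0.52, SE 0.574, edgeR adjusted p = 0.488). The Mmp9 values of the groups overlapped, and the estimate turned to -0.05 without 4FM3 replicate 5, the library with the highest value.

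Membrane-type MMPs are anchored at the cell surface, and the product of Mmp14 activates the precursor of MMP2 in a complex with TIMP2. Mmp14 (chromosome 14, 54431612 to 54445364) had 42.5, 39.0, 36.2, 41.9 and 52.6 CPM in 4FM3 replicates 1 to 5, against 66.1, 80.5, 54.7, 44.9 and 51.1 CPM in PBS replicates 1 to 5. The groups overlapped, since 4FM3 replicate 5 lay above PBS replicates 4 and 5. Mmp14 was 1.40-fold lower (log2 fold change -0.49, SE 0.154, edgeR adjusted p = 0.0246), a call that did not hold without 4FM3 replicate 1, 2, 3 or 4 (-0.48, -0.45, -0.43 and -0.48) or without PBS replicate 1 or 2 (-0.44 and -0.34), with edgeR adjusted p from 0.0507 to 0.0628. The Mmp14 call was also lost without PBS replicates 2 and 3 (-0.34, edgeR adjusted p = 0.106). Mmp15, whose product MT2-MMP also sits in the cell membrane (chromosome 8, 95352268 to 95375080), had 148, 123, 154, 156 and 98.0 CPM in 4FM3 replicates 1 to 5, against 82.2, 78.6, 74.8, 86.2 and 52.3 CPM in PBS replicates 1 to 5. Every 4FM3 library lay above every PBS library, and replicate 5 was the lowest of each group. Mmp15 was 1.82-fold higher (log2 fold change 0.86, SE 0.154, edgeR adjusted p = 0.00135), with a range of 0.68 to 1.05 on the log2 scale over the 18 alternatives, all of them past the test. Mmp16, the gene of MT3-MMP, had 3.68, 3.25, 3.20, 2.47 and 4.77 CPM in 4FM3 replicates 1 to 5, against 8.72, 7.29, 7.68, 8.48 and 6.83 CPM in PBS replicates 1 to 5. The groups lay apart, and Mmp16 was 2.23-fold lower (log2 fold change -1.16, SE 0.176, edgeR adjusted p = 0.000439). The ratio of Mmp15 to Mmp14 CPM, which carries no length correction, ran from 1.86 to 4.26 in 4FM3 and from 0.977 to 1.92 in PBS. The ratio of Mmp2 to Timp2 CPM was 0.684 ± 0.0166 in 4FM3 and 0.670 ± 0.0792 in PBS (SD, n = 5 each), and that of Mmp14 to Timp2 was 0.163 ± 0.0333 in 4FM3 and 0.122 ± 0.0276 in PBS. Mmp17, a further membrane-type gene held by a lipid anchor, averaged 4.16 ± 0.766 CPM in 4FM3 and 3.76 ± 0.768 CPM in PBS (SD, n = 5 each) and did not pass (log2 fold change 0.15, SE 0.200, edgeR adjusted p = 0.576).

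Mmp23, an unusual MMP made as a type II membrane protein, Mmp11, known as stromelysin-3 of stromal cells, and Mmp27 also fell. Mmp23 (chromosome 4, 155650655 to 155653384) had 15.2, 23.6, 13.1, 15.4 and 20.7 CPM in 4FM3 replicates 1 to 5, against 30.2, 32.7, 32.2, 34.6 and 42.8 CPM in PBS replicates 1 to 5. The groups did not overlap, and Mmp23 was 1.95-fold lower (log2 fold change -0.96, SE 0.154, edgeR adjusted p = 0.000573). Mmp27 had 0.460, 1.13, 0.481, 0.771 and 1.16 CPM in 4FM3 replicates 1 to 5, against 1.82, 2.52, 3.59, 2.03 and 1.93 CPM in PBS replicates 1 to 5. Each 4FM3 value lay below each PBS value, with 3 to 29 reads per library, and Mmp27 was 2.91-fold lower (log2 fold change -1.54, SE 0.328, edgeR adjusted p = 0.00279). Mmp11 had 7.21, 7.91, 4.17, 6.79 and 5.49 CPM in 4FM3 replicates 1 to 5, against 8.85, 9.56, 8.91, 10.8 and 7.21 CPM in PBS replicates 1 to 5. The groups overlapped, since 4FM3 replicate 2 lay above PBS replicate 5, and Mmp11 was 1.43-fold lower (log2 fold change -0.52, SE 0.175, edgeR adjusted p = 0.0301). The Mmp11 call did not hold without 4FM3 replicate 3 or 5 (-0.40 and -0.47) or without PBS replicate 2, 3 or 4 (-0.49, -0.51 and -0.44), with edgeR adjusted p from 0.0572 to 0.0739. It was also lost without PBS replicates 2 and 3 (-0.49, edgeR adjusted p = 0.119) and without these and 4FM3 replicates 2 and 5 (-0.56, edgeR adjusted p = 0.0971). Mmp11 shares 155 exon bases on the opposite strand with Chchd10, which was 388 CPM in 4FM3 and 233 CPM in PBS, and the library kit keeps the strand per the labels' protocols, while whether the counting used it is not given in the sources used here. Mmp28, the epilysin gene, averaged 6.86 ± 1.25 CPM in 4FM3 and 8.66 ± 1.36 CPM in PBS (SD, n = 5 each) and did not pass (log2 fold change -0.33, SE 0.160, edgeR adjusted p = 0.106), except with library size alone (-0.51). Mmp19 averaged 11.4 ± 6.10 CPM in 4FM3 and 14.5 ± 2.71 CPM in PBS (SD, n = 5 each) and did not pass either (log2 fold change -0.34, SE 0.304, edgeR adjusted p = 0.386). Without 4FM3 replicate 5, Mmp19 passed at -0.71, and without 4FM3 replicate 2 it stood at -0.15.

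**Figure D3:**
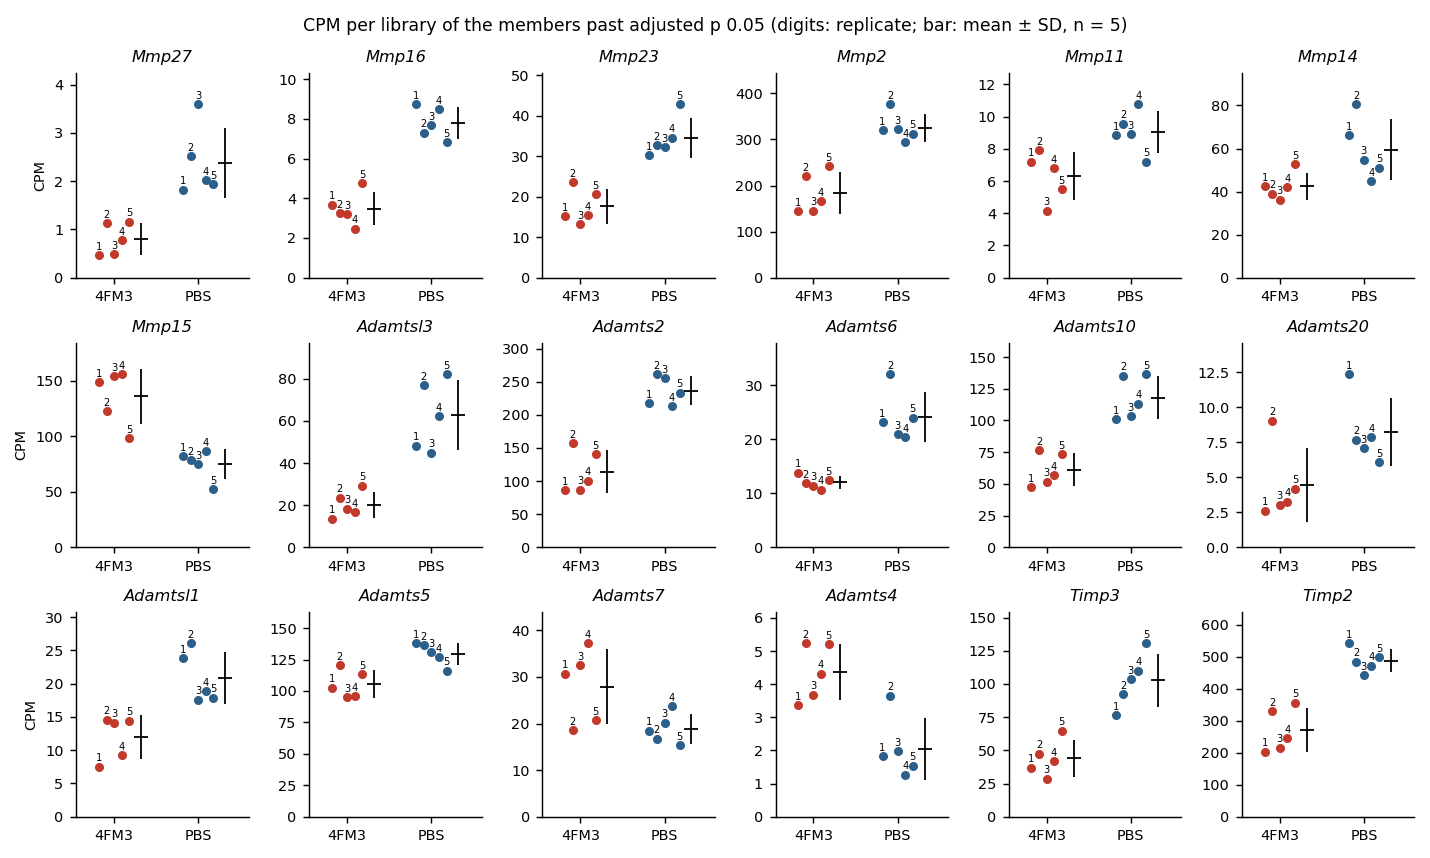
CPM (y axis, from 0) of the 18 genes past an edgeR adjusted p of 0.05 in the 5 libraries of 4FM3 (left, red) and the 5 of PBS (right, blue); digits are replicate numbers and the black bar is the mean ± SD. Mmp15 has all 4FM3 points above the PBS points, and Mmp2, Adamts2 and Timp2 have replicates 2 and 5 as the highest 4FM3 points.

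A cluster of 10 MMP genes lies on mouse chromosome 9 between bases 7272514 and 7699585, with the collagenase, stromelysin, matrilysin and macrophage elastase genes. Of the 10, 4 passed the count filter and 1 of these, Mmp27, passed the test. Of the 13 MMP genes elsewhere in the genome 10 passed the filter and 6 passed the test, where 43.0% of all genes tested passed, and with so few genes no difference between the places is read from these counts. The transcription factor AP-1 (activator protein 1) is known to drive several MMP genes of this cluster through a site near their start. RefSeq promoters on GRCm38.p6 were held for 36 of the 51 genes, in 39 windows, and the 250 bases before the start were searched on both strands for the AP-1 motif TGANTCA and for the GC box GGGCGG, a motif bound by SP1-type factors, which by their letters cannot overlap. The AP-1 motif was in 8 of 12 windows of the chromosome 9 cluster (66.7%) and in 0 of 27 windows of the other genes, against 6.75% of all 32851 promoter windows. The GC box was in 0 of 12 windows of the cluster and in 20 of 27 of the other windows (74.1%), against 32.7% of all windows. CG dinucleotides numbered 0 to 7 per window in the cluster, with a median of 1, and had a median of 15 in the other windows, against 6 in all windows. Of the 18 genes past the test 10 had a promoter in the table, in 11 windows, and 8 of these held the GC box and 0 the AP-1 motif. A match of letters describes the window and is no evidence of a bound factor. To set both kinds of promoter side by side, the sequences that follow are 3 promoters of the cluster with the AP-1 motif in capitals and then 3 of genes past the test with the GC box, or its reverse complement, in capitals, each as the 250 bases before the start on the coding strand. Mmp12 has a further window, chr9:7344147-7344396, which spans the start of the gene in GENCODE M21 (base 7344381), holds no AP-1 motif and is not printed. The start meant for all windows is that of RefSeq, which can differ from that of GENCODE M21. The printed Mmp12 and Timp2 windows lie inside their genes as annotated in GENCODE M21. The printed Mmp15 window runs past the start annotated there (base 95352268). Among genes past the test whose windows are not printed, those of Mmp11 and Adamts20 also lie inside the annotated gene. The windows are chr9:7445572-7445821 for Mmp3 (plus strand), chr9:7347124-7347373 for Mmp12 (plus strand), chr9:7272264-7272513 for Mmp13 (plus strand), chr8:95352046-95352295 for Mmp15 (plus strand), chr11:118355412-118355661 for Timp2 (minus strand) and chr11:50601835-50602084 for Adamts2 (plus strand).
Mmp3: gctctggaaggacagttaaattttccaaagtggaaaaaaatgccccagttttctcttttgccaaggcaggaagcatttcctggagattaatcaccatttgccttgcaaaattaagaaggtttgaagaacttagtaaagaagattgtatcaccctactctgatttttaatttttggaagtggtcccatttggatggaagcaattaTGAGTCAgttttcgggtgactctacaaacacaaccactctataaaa
Mmp12: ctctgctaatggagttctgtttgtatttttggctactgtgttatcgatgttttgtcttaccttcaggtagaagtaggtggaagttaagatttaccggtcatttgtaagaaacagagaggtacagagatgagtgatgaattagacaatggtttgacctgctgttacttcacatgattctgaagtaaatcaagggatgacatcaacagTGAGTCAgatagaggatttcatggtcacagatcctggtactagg
Mmp13: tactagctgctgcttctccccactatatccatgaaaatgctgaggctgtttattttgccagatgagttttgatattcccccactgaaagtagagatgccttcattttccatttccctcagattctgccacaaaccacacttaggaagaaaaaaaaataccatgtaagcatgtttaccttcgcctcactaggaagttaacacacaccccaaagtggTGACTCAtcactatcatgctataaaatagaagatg
Mmp15: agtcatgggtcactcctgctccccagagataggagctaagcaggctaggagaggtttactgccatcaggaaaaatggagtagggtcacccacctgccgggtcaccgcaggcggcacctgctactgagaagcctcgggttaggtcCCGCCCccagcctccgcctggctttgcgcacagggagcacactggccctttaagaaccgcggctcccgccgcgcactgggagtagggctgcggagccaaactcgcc
Timp2: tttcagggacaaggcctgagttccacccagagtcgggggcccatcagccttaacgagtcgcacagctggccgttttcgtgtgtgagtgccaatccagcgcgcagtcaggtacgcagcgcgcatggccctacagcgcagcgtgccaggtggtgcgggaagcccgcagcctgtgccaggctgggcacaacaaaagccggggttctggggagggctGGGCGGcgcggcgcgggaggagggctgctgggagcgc
Adamts2: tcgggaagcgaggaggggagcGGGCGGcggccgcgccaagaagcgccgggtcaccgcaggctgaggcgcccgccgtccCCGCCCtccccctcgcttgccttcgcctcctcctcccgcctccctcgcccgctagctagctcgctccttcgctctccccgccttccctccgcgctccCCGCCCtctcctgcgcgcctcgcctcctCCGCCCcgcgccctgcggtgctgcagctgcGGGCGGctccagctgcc

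**Figure D4:**
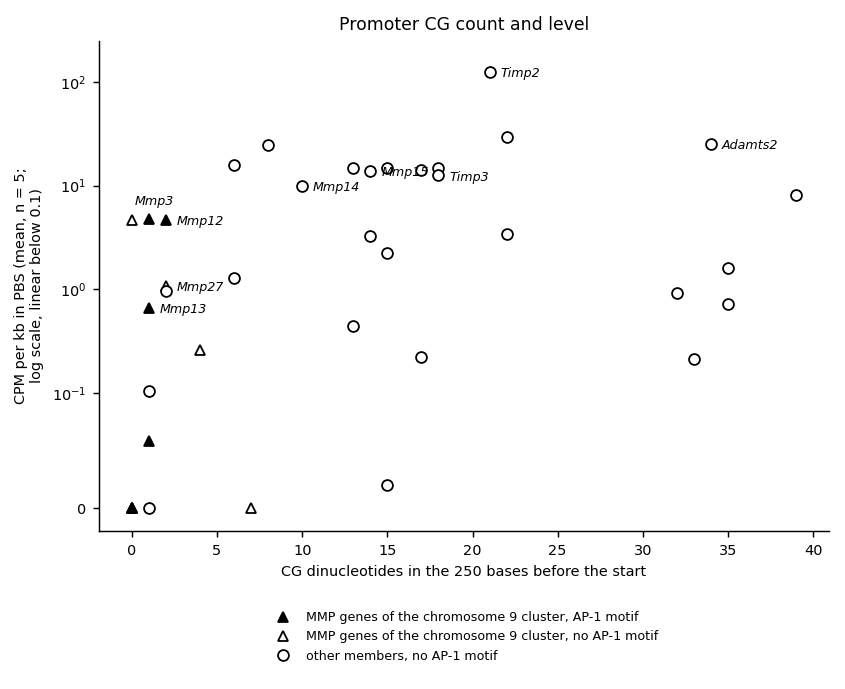
Number of CG dinucleotides in the 250 bases before the start (x axis) and mean CPM per kb in PBS (y axis, log scale, linear below 0.1; n = 5) for the 39 promoter windows of 36 genes; triangles are MMP genes of the chromosome 9 cluster, circles other genes, and filled symbols hold the AP-1 motif. The filled triangles sit at 0 to 2 CG dinucleotides and at or under 4.75 CPM per kb. Mmp12 is labelled only at its window with the motif.

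Of the tested genes of this cluster, Mmp12 and Mmp3 varied widely within groups. Mmp12, the macrophage elastase gene (chromosome 9, 7344381 to 7369499), had 43.6, 3.25, 30.4, 36.5 and 18.9 CPM in 4FM3 replicates 1 to 5, against 61.8, 47.5, 51.6, 3.42 and 4.77 CPM in PBS replicates 1 to 5. Values of 3.25 to 4.77 CPM were found in 3 libraries, 4FM3 replicate 2 and PBS replicates 4 and 5, while the other 7 had 18.9 to 61.8 CPM, so both groups held low and high libraries. The macrophage marker sum was 780, 806 and 1576 CPM in these 3 libraries, in that order, and 727 to 1724 CPM in the other 7, and its part in the Mmp12 values was not tested. No difference between groups passed for Mmp12 (log2 fold change -0.36, SE 0.826, edgeR adjusted p = 0.754), and the estimate turned to 0.19 without PBS replicates 2 and 3 and to 0.01 with limma-voom. Mmp3, the stromelysin-1 gene, had 3.83, 2.12, 1.76, 2.78 and 11.3 CPM in 4FM3 replicates 1 to 5, against 4.30, 23, 6.07, 7.09 and 2.32 CPM in PBS replicates 1 to 5. One library stood out in each group, 4FM3 replicate 5 and PBS replicate 2, and Mmp3 did not pass (log2 fold change -0.96, SE 0.694, edgeR adjusted p = 0.285). The Mmp3 log2 fold change was -1.70 without 4FM3 replicate 5 and -0.17 without PBS replicate 2. Mmp13, the collagenase-3 gene, averaged 1.45 ± 0.369 CPM in 4FM3 and 1.77 ± 1.0 CPM in PBS (SD, n = 5 each) and did not pass (log2 fold change -0.29, SE 0.357, edgeR adjusted p = 0.534). Mmp12, Mmp3, Mmp9, Timp1 and Timp4 were chosen for description after their values were seen.

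**Figure D5:**
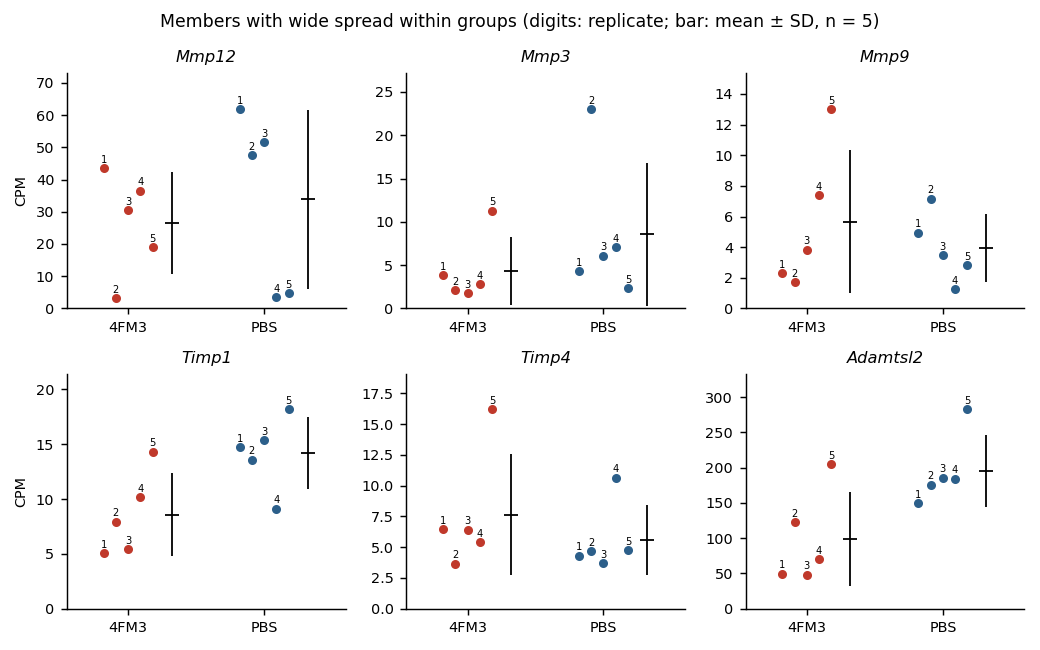
CPM (y axis, from 0) of 6 genes that did not pass the test, in the 5 libraries of 4FM3 (left, red) and the 5 of PBS (right, blue); digits are replicate numbers and the black bar is the mean ± SD. Mmp12 falls to between 3.25 and 4.77 CPM in 3 libraries, and 4FM3 replicate 5 is the highest 4FM3 point for Mmp3, Mmp9, Timp1, Timp4 and Adamtsl2.

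Among ADAMTS proteases the procollagen N-propeptidases remove the amino-terminal propeptide of fibrillar procollagens. Adamts2, the main enzyme of this kind (chromosome 11, 50602084 to 50807573), had 86.2, 157, 86.8, 100.4 and 140.3 CPM in 4FM3 replicates 1 to 5, against 218, 262, 256, 213 and 234 CPM in PBS replicates 1 to 5. The groups did not overlap, and replicates 2 and 5 were the highest of the 4FM3 group. Adamts2 was 2.07-fold lower (log2 fold change -1.05, SE 0.166, edgeR adjusted p = 0.000749). Adamts3, which acts on the same class of procollagens, averaged 7.95 ± 2.21 CPM in 4FM3 and 8.74 ± 1.73 CPM in PBS (SD, n = 5 each) and did not pass (log2 fold change -0.14, SE 0.199, edgeR adjusted p = 0.596). Adamts14, the remaining gene of this kind, averaged 2.78 ± 0.841 CPM in 4FM3 and 3.74 ± 1.29 CPM in PBS (SD, n = 5 each) and did not pass (log2 fold change -0.43, SE 0.287, edgeR adjusted p = 0.244). Without PBS replicates 2 and 3 the log2 fold change of Adamts2 was -0.94.

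ADAMTS proteases of the proteoglycanase group cut versican and aggrecan, and of their genes Adamts5 and Adamts20 fell while Adamts4 rose. Adamts5 (chromosome 16, 85856173 to 85901828) had 103, 121, 95.0, 95.6 and 113 CPM in 4FM3 replicates 1 to 5, against 138, 136, 131, 127 and 116 CPM in PBS replicates 1 to 5. The groups overlapped at 4FM3 replicate 2 and PBS replicate 5. Adamts5 was 1.23-fold lower (log2 fold change -0.30, SE 0.0790, edgeR adjusted p = 0.00983), and did not pass without PBS replicates 2 and 3 (-0.26, edgeR adjusted p = 0.0834). Adamts4 (chromosome 1, 171250421 to 171260637) had 3.37, 5.23, 3.68, 4.32 and 5.20 CPM in 4FM3 replicates 1 to 5, against 1.82, 3.65, 1.98, 1.27 and 1.55 CPM in PBS replicates 1 to 5. The PBS library with the highest value, replicate 2, lay above 4FM3 replicate 1, and the other PBS libraries lay below all 4FM3 libraries. Adamts4 was 2.12-fold higher (log2 fold change 1.08, SE 0.276, edgeR adjusted p = 0.00764), at a level of 10 to 37 reads per library. Adamts20 had 2.61, 9.04, 3.04, 3.24 and 4.19 CPM in 4FM3 replicates 1 to 5, against 12.4, 7.67, 7.06, 7.85 and 6.05 CPM in PBS replicates 1 to 5. The groups overlapped through 4FM3 replicate 2, and Adamts20 was 1.83-fold lower (log2 fold change -0.88, SE 0.325, edgeR adjusted p = 0.0468). The Adamts20 call did not hold without 4FM3 replicate 1, 3, 4 or 5 (-0.73, -0.77, -0.78 and -0.85) or without PBS replicate 1, 2, 3 or 4 (-0.68, -0.89, -0.91 and -0.88), with edgeR adjusted p from 0.0649 to 0.108, and without 4FM3 replicate 2 the log2 fold change was -1.32. It was also lost without the count filter (-0.87, edgeR adjusted p = 0.0740) and without PBS replicates 2 and 3 (-0.96, edgeR adjusted p = 0.0978). Adamts1, Adamts15, Adamts9 and Adamts8 did not pass, the first with 36.5, 71.2, 44.5, 57.7 and 95.5 CPM in 4FM3 replicates 1 to 5, against 53.4, 97.3, 90.1, 71.2 and 76.6 CPM in PBS replicates 1 to 5 (log2 fold change -0.35, SE 0.255, edgeR adjusted p = 0.297). Replicate 1 was the lowest and replicate 5 the highest of the Adamts1 values in 4FM3, and the groups overlapped. Adamts9 had 50.9, 54.0, 71.8, 60.8 and 88.3 CPM in 4FM3 replicates 1 to 5, against 53.1, 59.0, 49.4, 47.5 and 45.5 CPM in PBS replicates 1 to 5, with the groups overlapping (log2 fold change 0.36, SE 0.140, edgeR adjusted p = 0.0579). Adamts9 passed without 4FM3 replicate 1 (0.43), without 4FM3 replicate 2 (0.42) and without PBS replicate 2 (0.42), and stood at 0.22 without 4FM3 replicate 5. It also passed with DESeq2 and with its size factors in edgeR (0.37 in both). Adamts15 averaged 30.6 ± 4.73 CPM in 4FM3 and 26.3 ± 5.24 CPM in PBS (SD, n = 5 each) (log2 fold change 0.21, SE 0.146, edgeR adjusted p = 0.250). Adamts8 averaged 2.08 ± 1.49 CPM in 4FM3 and 4.85 ± 2.70 CPM in PBS (SD, n = 5 each) (log2 fold change -1.19, SE 0.527, edgeR adjusted p = 0.0877) and passed at -1.63 without 4FM3 replicate 2.

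Adamts6 and Adamts10, a related pair whose products act on fibrillin microfibrils, both fell. Adamts6 (chromosome 13, 104287835 to 104496695) had 13.8, 11.9, 11.4, 10.6 and 12.4 CPM in 4FM3 replicates 1 to 5, against 23.2, 32.1, 20.9, 20.4 and 24 CPM in PBS replicates 1 to 5. The 4FM3 values were close to each other and all below the PBS values, and Adamts6 was 2.0-fold lower (log2 fold change -1.0, SE 0.131, edgeR adjusted p = 0.000271), with the smallest p of the 39 genes. Adamts10 (chromosome 17, 33524204 to 33553782) had 47.2, 76.6, 51.7, 56.6 and 73.6 CPM in 4FM3 replicates 1 to 5, against 101, 135, 104, 113 and 137 CPM in PBS replicates 1 to 5. The groups did not overlap, and Adamts10 was 1.93-fold lower (log2 fold change -0.95, SE 0.145, edgeR adjusted p = 0.000571). Adamts7, whose product cuts cartilage oligomeric matrix protein, had 30.7, 18.5, 32.5, 37.2 and 20.7 CPM in 4FM3 replicates 1 to 5, against 18.5, 16.7, 20.2, 23.7 and 15.3 CPM in PBS replicates 1 to 5. The groups overlapped, with 4FM3 replicates 2 and 5 inside the PBS range. Adamts7 was 1.47-fold higher (log2 fold change 0.56, SE 0.193, edgeR adjusted p = 0.0348), a call that did not hold without 4FM3 replicate 1, 3 or 4 (0.53, 0.50 and 0.44) or without PBS replicate 1, 2 or 5 (0.55, 0.53 and 0.50), with edgeR adjusted p from 0.0615 to 0.0850. The Adamts7 call was also lost with library size alone (0.38, edgeR adjusted p = 0.0866), with limma-voom (0.52, adjusted p = 0.0543), without the count filter (0.56, edgeR adjusted p = 0.0565) and without PBS replicates 2 and 3 (0.55, edgeR adjusted p = 0.123). Adamts7 shares 122 exon bases on the opposite strand with Tbc1d2b, which averaged 24.3 CPM in 4FM3 and 39.4 CPM in PBS. Adamts12, the other protease of this kind, averaged 13.1 ± 1.95 CPM in 4FM3 and 14 ± 3.21 CPM in PBS (SD, n = 5 each) and did not pass (log2 fold change -0.09, SE 0.161, edgeR adjusted p = 0.688). Its log2 fold change, and those of Adamts17 and Adamts19, lay between -0.22 and -0.0030.

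ADAMTS-like proteins bind fibrillin and other matrix proteins without cutting them, and 2 of their 5 genes fell. Adamtsl3 (chromosome 7, 82335694 to 82614450) had 13.5, 23.6, 18.3, 16.7 and 29.2 CPM in 4FM3 replicates 1 to 5, against 48.2, 77.1, 44.9, 62.2 and 82.3 CPM in PBS replicates 1 to 5. The groups did not overlap, and Adamtsl3 was 3.10-fold lower (log2 fold change -1.63, SE 0.232, edgeR adjusted p = 0.000504), the lowest log2 fold change of the 39 genes. Adamtsl1 had 7.52, 14.6, 14.1, 9.25 and 14.5 CPM in 4FM3 replicates 1 to 5, against 23.8, 26, 17.6, 18.9 and 17.9 CPM in PBS replicates 1 to 5. These groups did not overlap either, and Adamtsl1 was 1.74-fold lower (log2 fold change -0.80, SE 0.189, edgeR adjusted p = 0.00553). Adamtsl2, whose product binds a latent TGF-beta binding protein, had 49.4, 123, 48.4, 70.0 and 205 CPM in 4FM3 replicates 1 to 5, against 149, 176, 186, 184 and 283 CPM in PBS replicates 1 to 5. The groups overlapped, since 4FM3 replicate 5 lay above 4 of the PBS libraries. Adamtsl2 did not pass (log2 fold change -0.98, SE 0.406, edgeR adjusted p = 0.0780), and passed at -1.42 without 4FM3 replicate 5, at -1.15 with library size alone, at -1.18 with limma-voom and at -1.88 when PBS replicates 2 and 3 were left out together with 4FM3 replicates 2 and 5. Adamtsl5 and Adamtsl4 did not pass. Adamtsl5 had 155, 163, 128, 147 and 166 CPM in 4FM3 replicates 1 to 5, against 144, 125, 146, 157 and 129 CPM in PBS replicates 1 to 5. The groups overlapped over most of their range (log2 fold change 0.12, SE 0.0853, edgeR adjusted p = 0.282). The Adamtsl4 average was 56.5 ± 7.58 CPM in 4FM3 and 59.2 ± 9.48 CPM in PBS (SD, n = 5 each) (log2 fold change -0.07, SE 0.115, edgeR adjusted p = 0.658).

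Inhibitor genes were led by Timp2, a broad inhibitor that also takes part in the activation of MMP2. Timp2 (chromosome 11, 118301069 to 118355740) had 203, 329, 216, 245 and 356 CPM in 4FM3 replicates 1 to 5, against 541, 484, 442, 472 and 498 CPM in PBS replicates 1 to 5. The highest 4FM3 value lay below the lowest PBS value. Timp2 was 1.81-fold lower (log2 fold change -0.85, SE 0.147, edgeR adjusted p = 0.000953), at -0.89 without PBS replicates 2 and 3. Timp3, the inhibitor that binds to the matrix and also blocks ADAMTS4 and ADAMTS5 (chromosome 10, 86300372 to 86349506), had 36.8, 47.3, 28.5, 41.9 and 64.9 CPM in 4FM3 replicates 1 to 5, against 76.4, 92.3, 104, 110.1 and 130.5 CPM in PBS replicates 1 to 5. The groups did not overlap, and Timp3 was 2.33-fold lower (log2 fold change -1.22, SE 0.206, edgeR adjusted p = 0.00114), at -1.25 without PBS replicates 2 and 3. Syn3, which shares 1733 exon bases with Timp3 on the opposite strand, was at 1.35 CPM in 4FM3 and 2.61 CPM in PBS. Timp1, an inhibitor induced by inflammation and growth factors (chromosome X, 20870166 to 20874735), had 5.06, 7.91, 5.45, 10.2 and 14.3 CPM in 4FM3 replicates 1 to 5, against 14.7, 13.6, 15.4, 9.12 and 18.2 CPM in PBS replicates 1 to 5. The groups overlapped through 4FM3 replicates 4 and 5 and PBS replicate 4. Timp1 just missed the threshold (log2 fold change -0.72, SE 0.273, edgeR adjusted p = 0.0523), and passed at -0.98 without 4FM3 replicate 5 and at -0.83 without PBS replicate 4. Timp1 also passed with library size alone (-0.90, edgeR adjusted p = 0.0218), with DESeq2 (-0.71, adjusted p = 0.0303), with limma-voom (-0.78, adjusted p = 0.0375) and when PBS replicates 2 and 3 were left out together with 4FM3 replicates 2 and 5 (-1.02, edgeR adjusted p = 0.0487). Timp4, an inhibitor known to be abundant in the heart, had 6.44, 3.67, 6.41, 5.40 and 16.2 CPM in 4FM3 replicates 1 to 5, against 4.30, 4.65, 3.71, 10.6 and 4.77 CPM in PBS replicates 1 to 5. Replicate 5 of 4FM3 and replicate 4 of PBS stood out, and Timp4 did not pass (log2 fold change 0.44, SE 0.416, edgeR adjusted p = 0.414), with -0.04 without 4FM3 replicate 5 and 0.82 without PBS replicate 4. Timp4 is also known from fat tissue, and adipocyte markers summed to 20.1 CPM in 4FM3 replicate 5 and 1.84 to 4.16 CPM in the other 4FM3 libraries, and to 15.7 CPM in PBS replicate 4 and 1.76 to 27.1 CPM in the other PBS libraries, and their part in the Timp4 values was not tested.

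Of the 21 tested genes that did not pass, 6 had a log2 fold change above 0 and 15 below, from -1.19 to 0.52, with adjusted p from 0.0523 to 0.994 by edgeR. The 12 genes left out by the count filter had at most 20 counts in any library, and Mmp1a, Mmp1b, Mmp7 and Mmp20 had none. Adamts13, whose product cuts von Willebrand factor, had 1 count in all. Adamts16 had 1, 1, 5, 6 and 4 counts in 4FM3 replicates 1 to 5, against 16, 17, 10, 11 and 1 in PBS replicates 1 to 5. Mmp8 and Mmp25, both known from neutrophils, had 11 and 5 counts over the 4FM3 libraries and 25 and 46 over the PBS libraries. Of the 46 PBS counts of Mmp25, 18 were in replicate 2 and 20 in replicate 5. Mmp10, Mmp21, Mmp24 and Adamts18 had 5 to 66 counts over all libraries.

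Other genes of matrix proteolysis were counted from lists. Of 74 listed genes 57 were tested, 31 of them lower (54.4%, against 22.1% of all genes tested) and 4 higher (7.02%, against 20.9%), with a median log2 fold change of -0.64. Without PBS replicates 2 and 3, 21 were lower and 4 higher. In that setting calls over all genes went from 2846 to 1668 lower and from 2700 to 1853 higher. The counts of single lists that follow stand beside 22.1% lower, 20.9% higher and 43.0% in either direction among all genes tested. With so few genes in a list, no difference from these shares is read from its count. Of 11 tested ADAM proteases, which shed cell surface proteins, 5 were lower and 2 higher, but 2 were lower without 4FM3 replicate 3 or PBS replicate 1 or 2, and 3 without 4FM3 replicate 1, 2 or 4 or PBS replicate 3 or 5. When any 1 library other than 4FM3 replicate 4 or PBS replicate 2 was left out, a single ADAM gene was higher. Adam9 and Adam33 were 1.38-fold and 2.18-fold lower, and Adam11, which lacks protease activity, 1.68-fold higher; the edgeR adjusted p was 0.00730 for Adam9, 0.0166 for Adam33 and 0.0139 for Adam11. Of 4 tested astacins and procollagen enhancers 3 were lower, among them Bmp1, the enzyme that removes the carboxy-terminal propeptide of procollagen (log2 fold change -0.73, SE 0.145, edgeR adjusted p = 0.00236), its enhancer Pcolce (log2 fold change -0.76, SE 0.132, edgeR adjusted p = 0.00104), and Pcolce2 (log2 fold change -0.73, SE 0.232, edgeR adjusted p = 0.0270). Pcolce2 did not hold when any of 6 libraries was left out, 4FM3 replicates 1, 3 and 4 (-0.62, -0.66 and -0.62) and PBS replicates 3, 4 and 5 (-0.67, -0.66 and -0.71), nor without PBS replicates 2 and 3 or without the count filter (-0.71 and -0.73). In plasminogen activation 2 of 5 tested genes were lower, among them the protease inhibitor gene Serpine2 (log2 fold change -0.93, SE 0.160, edgeR adjusted p = 0.00113), and the receptor gene Plaur did not pass (log2 fold change -0.64, SE 0.381, edgeR adjusted p = 0.191), with -0.19 without PBS replicate 2 and 0.09 without PBS replicates 2 and 3.

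Of 10 tested cathepsins and cystatins 3 were lower (5 without PBS replicate 4) and none higher, where 22.1% of all genes tested were lower and 20.9% higher. The 3 were the cathepsin genes Ctsz (log2 fold change -0.77, SE 0.140, edgeR adjusted p = 0.00135) and Ctss (log2 fold change -1.10, SE 0.327, edgeR adjusted p = 0.0226) and the cystatin gene Cst3 (log2 fold change -0.67, SE 0.123, edgeR adjusted p = 0.00119). Ctss did not hold without 4FM3 replicate 3 or 5, at -1.05 each, without the count filter (-1.10, edgeR adjusted p = 0.0519), without PBS replicates 2 and 3 (-1.03, edgeR adjusted p = 0.0793) or without these and 4FM3 replicates 2 and 5 (-1.02, edgeR adjusted p = 0.255). Matrix serine proteases were lower in 3 of 5 tested cases, namely Prss23 (log2 fold change -0.86, SE 0.154, edgeR adjusted p = 0.00116), Dpp4 (log2 fold change -0.79, SE 0.215, edgeR adjusted p = 0.0107) and Fap, the fibroblast activation protein (log2 fold change -0.50, SE 0.160, edgeR adjusted p = 0.0234), the last of which did not hold without 4FM3 replicate 1 or 3 (-0.44 and -0.48) or PBS replicate 2 or 3 (-0.46 and -0.43), without both of these PBS libraries (-0.38), or without them and 4FM3 replicates 2 and 5 (-0.41). Without PBS replicates 2 and 3, 1 of these serine proteases was lower. Among activators and regulators of metalloproteases 5 of 9 were lower and 2 higher. Thbs2, which clears MMP2 from the matrix, was 2.08-fold lower (log2 fold change -1.06, SE 0.128, edgeR adjusted p = 0.000271), the proprotein convertase gene Pcsk5 1.75-fold lower (log2 fold change -0.81, SE 0.112, edgeR adjusted p = 0.000306), and Bsg, the inducer of MMPs known as basigin, 1.5-fold higher (log2 fold change 0.59, SE 0.0931, edgeR adjusted p = 0.000531). Basigin had 803, 639, 847, 769.6 and 835 CPM in 4FM3 replicates 1 to 5, against 567, 483, 486, 569 and 484 CPM in PBS replicates 1 to 5, with every 4FM3 value above every PBS value. Of the substrates listed, Dcn, Col1a1 and Col1a2 are also on the fibroblast marker list. Comp is also on the activated fibroblast and the cartilage and valve lists, Acan on the latter and Vwf on the endothelial list. The substrate and marker counts thus share these genes. Of 13 tested substrates of these enzymes 10 were lower and none higher, with a median log2 fold change of -1.06 over the 13. Those with the smallest p were the collagen genes Col3a1 (log2 fold change -1.18, SE 0.175, edgeR adjusted p = 0.000424) and Col1a2 (log2 fold change -1.24, SE 0.197, edgeR adjusted p = 0.000662) and the proteoglycan gene Dcn (log2 fold change -0.69, SE 0.110, edgeR adjusted p = 0.000571).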

How the data were processed

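RNA of left ventricles was sequenced in 10 libraries after depletion of ribosomal RNA with a kit that keeps the strand, per the labels' protocols. The authors deposited whole-number read counts per gene symbol, a normalized signal that equals the count times 1 factor per library (0.931 to 1.11), and log2 of that deposited signal plus 1, both checked here against the counts. The build was mm10, per the submitters' processing notes, and the sources used here do not give the aligner, counter or annotation. 26 symbols in the table read as dates.

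Counts of all 10 libraries were fitted with edgeR 4.0.16 (R 4.3.3; filterByExpr, TMM scaling, robust quasi-likelihood F test, two-sided) and Benjamini-Hochberg adjustment ran over 12906 genes, with a threshold of 0.05. Standard errors are the log2 fold change over the root of F. The common biological coefficient of variation was 14.5%. Alternatives were library size alone, DESeq2 1.42.0 size factors and Wald test, limma-voom (limma 3.58.1), no count filter, a replicate block and leaving out libraries. Coordinates and exon lengths came from GENCODE M21 and promoters from RefSeq GRCm38.p6. Values of every library were given for genes past the threshold whose mean reached 1 CPM and for the 4 most abundant other genes, and 3 genes of each list by smallest p. Some results that this rule would name are not reported here. The members and lists were chosen with earlier results of these data known.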

Additional observations from a re-analysis of the deposited data

Results flagged for a closer look

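In a group of 5 libraries a value was singled out when its gap to the nearest other library exceeded 0.71 of the group's range. This happened in 8 of 78 groups looked at. Chance gives about 1 in 20 only for normally distributed values, which was not checked for CPM. Each of the 8 was the highest value of its group, and no excess over chance is read from this count. Adamts20 was highest in 4FM3 replicate 2, with 9.04 CPM against 4.19 CPM in the next library, and in PBS replicate 1, with 12.4 CPM against 7.85 CPM. Adamtsl2 reached 282.5 CPM in PBS replicate 5, where the next library had 186 CPM. Mmp13 reached 3.52 CPM in PBS replicate 2, where the next library had 1.61 CPM. Mmp3 was highest in 4FM3 replicate 5, with 11.3 CPM, and in PBS replicate 2, with 23 CPM, the second of which is one of the PBS libraries with lung epithelium transcripts. Timp4 was highest in 4FM3 replicate 5, with 16.2 CPM, and in PBS replicate 4, with 10.6 CPM. The cause of these values was not tested.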

How the results depend on the processing

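Of the 18 genes past the test, 13 kept their direction and their side of the threshold under all 18 alternatives, namely Adamts2, Adamts4, Adamts6, Adamts10, Adamtsl1, Adamtsl3, Mmp2, Mmp15, Mmp16, Mmp23, Mmp27, Timp2 and Timp3. With library size alone 1540 genes were higher and 4967 lower, 1 ADAMTS gene and 2 other pathway genes were higher. A single ADAMTS gene was higher with limma-voom, without the count filter and without PBS replicates 2 and 3, and the last setting left 1668 genes lower. Leaving out 1 library at a time gave 1 to 3 higher and 6 to 8 lower ADAMTS genes, 1 higher and 4 to 6 lower MMP genes, 2 to 3 lower TIMP genes, 3 to 4 higher and 24 to 33 lower pathway genes, and 2317 to 2840 higher and 2206 to 2991 lower genes. With the replicate block 2740 genes were higher and 2852 lower, and 5 MMP, 7 ADAMTS and 3 TIMP genes were lower. Same-numbered libraries correlated at -0.0448 to 0.0595, so the numbers were not taken to pair them; under the block Mmp14 (-0.47), Adamts20 (-0.94) and Ctss (-0.98) did not pass, and Timp1 (-0.76) and Adamtsl2 (-1.16) did. Sign changes occurred only in genes that had not passed. They were Adamtsl5 (-0.055) and Mmp17 (-0.030) with library size alone, Mmp12 (0.011) with limma-voom, and Adamts19 with DESeq2 and with its size factors (0.012 in both) and without the filter (0.00012). When single libraries were left out the log2 fold change ran from -0.16 to 0.13 for Adamts19, from -0.16 to 0.014 for Adamts12, from -0.43 to 0.12 for Mmp13, from -0.14 to 0.038 for Adamtsl4, from -0.052 to 0.86 for Mmp9 and from -0.037 to 0.82 for Timp4. Without PBS replicates 2 and 3 Adamts12 was 0.015, Adamts17 0.035, Mmp12 0.19, Mmp13 0.23 and Plaur 0.088, and without these and 4FM3 replicates 2 and 5 Adamts19 was 0.0047, Mmp12 0.66, Mmp13 0.37 and Timp4 -0.11. The cause was not tested. Adamts7, Mmp11, Mmp14, Adamts20 and Adamts5 are the 5 whose call was lost in at least 1 alternative. The 12 genes below the count filter had at most 20 counts in any library and were not tested.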

Other observations

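The summed level of the 23 MMP genes was 417 to 507 CPM in the 4FM3 libraries and 517 to 706 CPM in the PBS libraries. The 24 ADAMTS and ADAMTS-like genes summed to 720 to 1096 CPM in 4FM3 and 1111 to 1290 CPM in PBS. The 4 TIMP genes summed to 251 to 451 CPM in 4FM3 and 564 to 651 CPM in PBS. These sums carry no length correction and no test.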
